A study of Mus musculus with 6 samples.

Results

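The genes described here encode the enzymes and carriers that bring pyruvate into the tricarboxylic acid (TCA) cycle, turn the cycle, exchange its intermediates with the cytosol and draw reducing power from it. They were taken from a list of 31 gene symbols chosen by function. A gene was read where a probe set of the array had that symbol alone in the platform table, and the brightest such probe set over the arrays stood for the gene. This found 30 of the 31 genes, from 74 probe sets. Mpc2, the partner of Mpc1 in the mitochondrial pyruvate carrier, was not matched and was not analysed here. All 30 passed the filter on dim signal and lie among 12944 genes tested. The hearts were from 6 male mice under basal conditions, 3 labelled wild-type (WT) and 3 labelled knockout (KO) for ERRα, the estrogen-related receptor alpha encoded by Esrra. Values of 3 hearts stand in the order of the mouse numbers. The labels give 5 of the mice as C57BL/6J aged 2 to 3 months and give no strain or age for WT 1. Each heart had its own Affymetrix Mouse430_2 array, and the header of the array deposited for WT 1 carries another WT mouse number than its title, which is used here. Which ERRα-null allele the mice carry is not stated in the labels used here.

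In working heart muscle most acetyl-CoA for the TCA cycle comes from fatty acids, and pyruvate is the other large source. Pyruvate crosses the inner mitochondrial membrane through the carrier of Mpc1 and Mpc2 and is oxidised by the pyruvate dehydrogenase complex. The cycle then passes electrons to the respiratory chain as NADH and FADH2. Anaplerotic enzymes refill cycle intermediates, the malate-aspartate shuttle carries cytosolic NADH equivalents into the mitochondrion, and isocitrate dehydrogenases, malic enzymes and the transhydrogenase Nnt supply NADPH. ERRα is an orphan nuclear receptor whose known targets include many genes of oxidative metabolism, and the comparison asked how their transcripts differ when it is absent from the unstressed heart.

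The targeted gene was read first. Its deposited signal was 368.1, 394.4 and 349.1 in WT 1 to 3, 24 and 18 in KO 2 and KO 3, and 180.1 in KO 1, which is 48.6% of the WT mean. KO 1 thus lay below every WT heart but well above KO 2 and KO 3, and this probe set did not show in it the loss that its label names. The cause was not tested. For this reason "the libraries labelled KO" is written throughout, and results are also given without KO 1. Esrra differed by -2.56 on the log2 scale (SE 0.507, limma adjusted p = 0.0239), and by -3.37 without KO 1 (adjusted p = 7.21e-07). KO 1 is set apart here by its Esrra signal, so the larger Esrra difference without it follows from that choice. That value is therefore no separate test of the labels. Without any 1 of the other hearts Esrra did not pass (adjusted p from 0.0767 to 0.104). Deposited arrays differed in brightness (mean signal after trimming 57.1 to 72.1, WT 1 the brightest), so signals were quantile normalised. All signals below are normalised signals unless called deposited, and differences are on the scale of log2(signal + 16), KO minus WT. In whole tissue, fewer cells of a type and less RNA per cell cannot be told apart.

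None of the 30 genes passed the test in either direction, at an adjusted p under 0.05 in limma over all genes tested. Over all 12944 genes, 3.43% passed, 2.01% as higher with the KO label and 1.42% as lower. At an unadjusted p under 0.05 there were 8 of the 30, against 18.4% of all genes. Of these 8, 5 were lower (9.43% of all genes) and 3 higher (8.92%). The 3 libraries labelled KO lay wholly above WT for 3 genes (Idh3a, Got1 and Acly) and wholly below for 4 (Dlat, Dlst, Suclg1 and Glud1), 7 of 30 against 23.8% of all genes (11.2% above and 12.5% below). The differences ran from -0.54 for Idh1 to 0.33 for Acly with a median of -0.03, and 19 of the 30 were negative. The median over all genes was -0.01, with 52.5% negative. On the deposited scale, without normalisation, the median of the 30 was -0.09 and 23 were negative. Over all genes the median there was -0.03, and 7117 of 12944 were negative. Again none of the 30 passed, where 1.78% of all genes were higher and 1.18% lower. By deposited signals the groups overlapped for all 7 genes named above and were apart for 1 of the 30, Ogdh, against 16.2% of all genes. Every median here describes the list and was not tested.

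The SE of the difference had a median of 0.0668 over the 30 genes, against 0.143 over all genes, and was above that for Idh1, Me2 and Pcx. The 95% confidence interval of the single gene, which is not adjusted for the number of genes, lay inside a 1.5-fold change either way for 28 of the 30 (Acly and Idh1 were the exceptions) and for 67.6% of all genes. It lay inside a 1.2-fold change for 16 of the 30, against 7.49% of all genes. These shares depend on the SE, which was smaller for the list, so they do not mark the list as less changed. The intervals are those of the brightest probe set alone. Some other probe sets differed more for Dlat, Mdh1 and Cs, and the others differed less for Idh3a and Glud1. Without KO 1, 3 of the 30 passed, against 7.69% of all genes. Idh3a and Got1 rose (2 of 30, against 3.98%) and Nnt fell (1 of 30, against 3.72%) in that comparison of 2 libraries with 3.

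**Figure D1:**
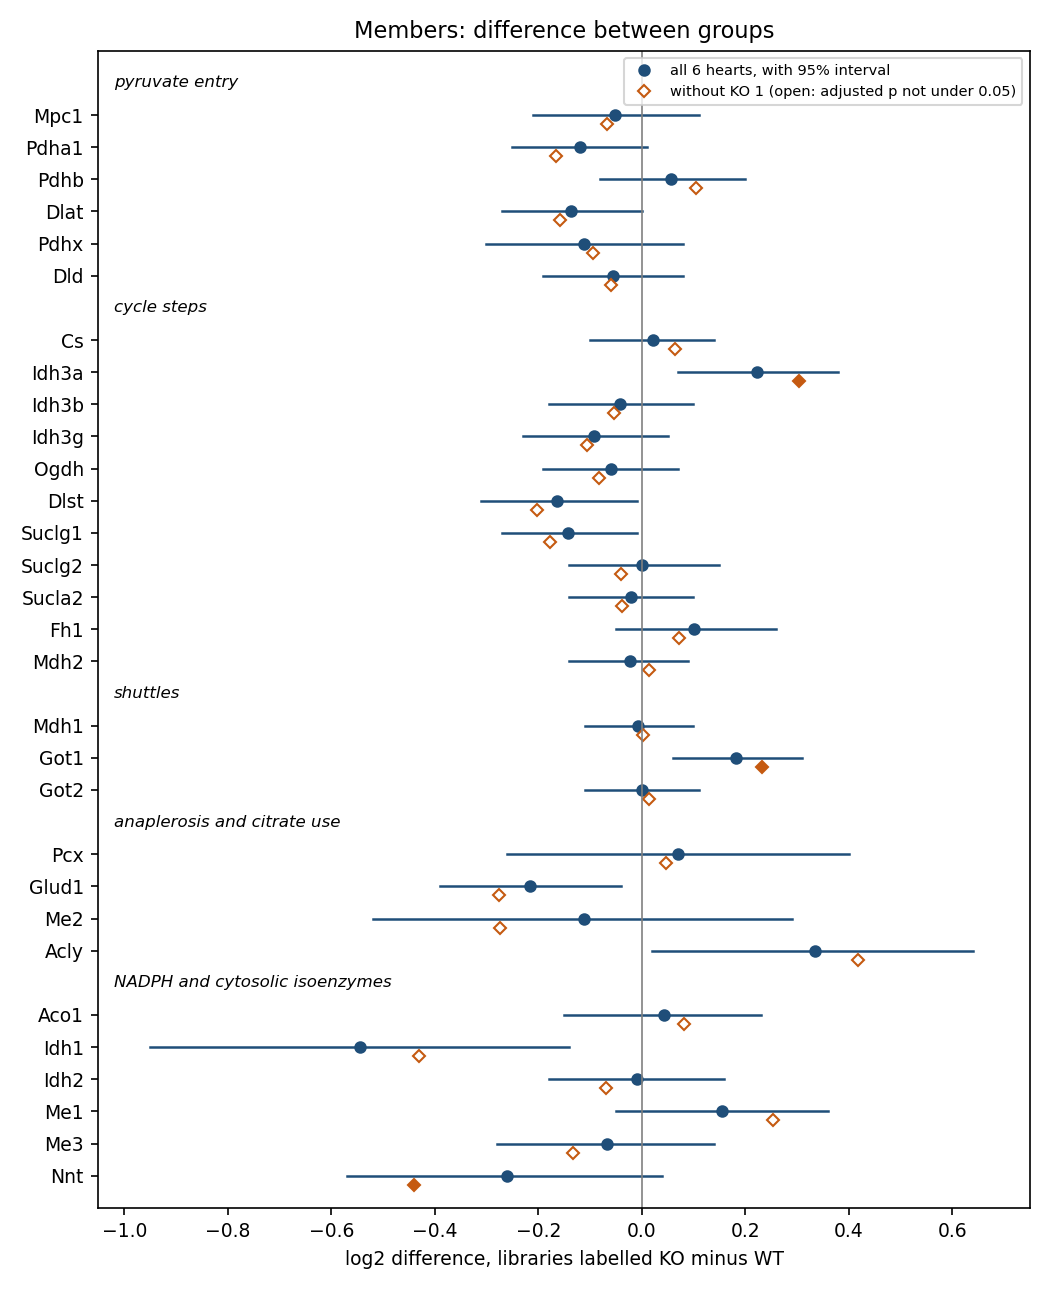
Log2 difference between the libraries labelled KO and WT for each of the 30 genes, in order of role (blue circle, with its 95% interval, 3 against 3 hearts), and the difference without KO 1 (orange diamond, filled where the adjusted p was under 0.05). Most circles lie within 0.25 of 0; Idh1 lies lowest at -0.54 and Acly highest at 0.33, and the filled diamonds are Idh3a, Got1 and Nnt.

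Of 6 pyruvate entry genes 0 passed. The differences were negative in 5, and the median was -0.08. Dlat encodes the dihydrolipoyl acetyltransferase core of pyruvate dehydrogenase. Its signal was 1640, 1620 and 1540 in the WT hearts against 1500, 1440 and 1420 in KO 1 to 3. The groups did not overlap, but the difference of -0.14 (SE 0.0606) had an adjusted p of 0.257. Pdha1, the catalytic alpha subunit that is switched off by phosphorylation, gave 4020, 3890 and 4040 in WT against 3890, 3690 and 3430 in the libraries labelled KO. KO 1 equalled WT 2 to 3 digits, and KO 2 and KO 3 lay below every WT heart (difference -0.12, SE 0.0581, adjusted p = 0.314).

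The other pyruvate genes lay closer to WT. Pdhb, the beta subunit of the same enzyme, was at 0.06, with 4230 ± 210 in WT against 4400 ± 303 in the libraries labelled KO (SD, n = 3 each). Pdhx, which anchors dihydrolipoamide dehydrogenase in the complex, was at -0.11 (SE 0.0854). Dld, that dehydrogenase, shared with the 2-oxoglutarate and branched-chain complexes, was at -0.06 (SE 0.0632). Mpc1, the pyruvate carrier subunit that was read, was at -0.05, with an interval from -0.21 to 0.11. On the deposited scale all 6 pyruvate genes were negative, Pdhb at -0.002, as were 7117 of all 12944 genes.

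The other 2 probe sets of Dlat gave differences of -0.21 (SE 0.0652) and -0.43 (SE 0.0898). The probe set at -0.43 read 1010, 1050 and 1050 in the WT hearts against 881, 688 and 737 in KO 1 to 3, so that the groups were apart and KO 1 lay nearest WT. In a fit over all 27022 probe sets past the filter its adjusted p was 0.0288, where 2.49% of probe sets passed and 1.03% fell. It did not pass on the deposited scale (-0.46, adjusted p = 0.114), with no filter (adjusted p = 0.0753) or with no intensity trend (adjusted p = 0.209). Nor did it pass without any 1 of the hearts other than KO 1 (adjusted p from 0.0852 to 0.120); without KO 1 it passed (-0.53, adjusted p = 0.00112). It was singled out after its values were seen. The part of the Dlat transcript that each probe set covers is not stated in the tables used here.

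Of the 11 genes of the cycle steps 0 passed. The differences were negative in 7, and the median was -0.02. Cs, citrate synthase, the entry step of the cycle and a common measure of mitochondrial content, gave 4930 ± 107 in WT against 5010 ± 282 in the libraries labelled KO. Its difference was 0.02 with an interval from -0.10 to 0.14, and it turned to -0.03 on the deposited scale. A less bright Cs probe set lay at 0.16 (SE 0.0638, adjusted p = 0.23 in the probe set fit).

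Idh3a encodes the catalytic subunit of the NAD-dependent isocitrate dehydrogenase, a regulated step of the cycle. Its signal was 3650, 3520 and 3430 in the WT hearts against 3680, 4400 and 4330 in KO 1 to 3. All 3 libraries labelled KO were above WT, KO 1 only just. The difference was 0.22 (SE 0.0703, adjusted p = 0.116), and without KO 1 it was 0.30 (SE 0.0518, adjusted p = 0.00518). The other Idh3a probe sets past the filter did not show a difference of that size, at 0.00, 0.13 and 0.05. The second brightest gave 1730, 1540 and 1520 in WT against 1480, 1900 and 1450 in the libraries labelled KO, where only KO 2 was high. As the mean of its probe sets Idh3a was at 0.10. The regulatory subunits Idh3b and Idh3g of the same enzyme were at -0.04 (SE 0.0623) and -0.09 (SE 0.0638).

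The 2-oxoglutarate dehydrogenase complex and the succinyl-CoA ligases follow in the cycle. Ogdh, the decarboxylating subunit, was at -0.06 (SE 0.0584), and Dlst, the succinyltransferase core, at -0.16 (SE 0.0677, adjusted p = 0.225). Dlst read 1400 ± 65.5 in WT against 1250 ± 62.7 in the libraries labelled KO. Suclg1, the alpha subunit that both succinyl-CoA ligases share, gave 2200, 2270 and 2250 in the WT hearts against 2130, 1960 and 1990 in KO 1 to 3. Each library labelled KO was below each WT heart (difference -0.14, SE 0.058, adjusted p = 0.222).

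The beta subunits of succinyl-CoA ligase, which set its nucleotide, did not show this. Suclg2, of the GTP-forming enzyme, was at 0.00 (interval -0.14 to 0.15), and Sucla2, of the ATP-forming enzyme, at -0.02 (interval -0.14 to 0.10). Fh1, fumarase, was at 0.10 (SE 0.0701). Mdh2, the mitochondrial malate dehydrogenase that closes the cycle, was at -0.02, with an interval from -0.14 to 0.09.

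The shuttle genes Mdh1, Got1 and Got2 had a median of 0.00, and 0 of 3 passed. Got1, the cytosolic aspartate aminotransferase, gave 3740, 3880 and 3780 in the WT hearts against 4030, 4380 and 4560 in KO 1 to 3. All libraries labelled KO lay above WT, and KO 1 lay between WT and the other KO hearts. The difference of 0.18 (SE 0.0571) had an adjusted p of 0.111, the lowest of the 30 genes, and without KO 1 it was 0.23 (SE 0.0501, adjusted p = 0.0173). Got1 has a single probe set on this array, so no other reading of it was at hand. Got2, the mitochondrial form, was at 0.00 with an interval from -0.11 to 0.11, and gave 5100 ± 224 in WT against 5100 ± 98.9 in the libraries labelled KO. Mdh1, the cytosolic malate dehydrogenase, gave 5670, 5960 and 5810 in WT against 5710, 5960 and 5690 in the libraries labelled KO, fully overlapping (difference -0.01, SE 0.0472). Its next brightest probe sets lay at 0.26 and 0.16, highest in KO 1 in both.

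ERRα binds the sequence TCAAGGTCA, and its core is AAGGTCA. Promoter windows of 300 bases, 250 before and 50 after the annotated start (RefSeq, GRCm38.p6), were at hand for 28 of the 31 listed genes. They were searched on both strands for exact matches. Idh3a, Me2 and Nnt had no window, and Idh3a and Nnt are among the genes that passed without KO 1. The full element was in 0 of the 28, against 0.466% of the 27025 genes with a window. The core, which the full element contains, was in 2 of the 28, Got1 and Ogdh, 7.14% against 5.38% of all genes. Got1 is shown because it had the lowest p of the 30 genes and holds the core on its own strand, 245 bases before its start. The capitals mark the core, and the stretch is chr19:43524814-43524855, minus strand of GRCm38.p6.
Got1: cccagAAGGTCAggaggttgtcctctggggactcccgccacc
A match describes the letters only, and ERRα binding was not measured in these hearts.

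Anaplerosis and citrate use held 4 genes, 0 of which passed. Glud1, glutamate dehydrogenase, which feeds 2-oxoglutarate into the cycle, gave 569, 554 and 545 in the WT hearts against 521, 464 and 448 in KO 1 to 3. The groups were apart, at a difference of -0.21 (SE 0.0812, adjusted p = 0.189) that was -0.28 without KO 1 (adjusted p = 0.0569). Its less bright probe set overlapped between groups, at -0.10 (SE 0.0844). Pcx, pyruvate carboxylase, which makes oxaloacetate from pyruvate, was dim, with 56.3 ± 10.5 in WT against 59.7 ± 9.96 in the libraries labelled KO. Me2, a mitochondrial malic enzyme, was dimmer still, at 27.7 ± 5.98 and 24.8 ± 8.36. For these dim genes the intervals were wide, from -0.26 to 0.40 for Pcx and from -0.52 to 0.29 for Me2.

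Acly encodes ATP-citrate lyase, which splits exported citrate into cytosolic acetyl-CoA for lipid synthesis. It gave 226, 235 and 243 in the WT hearts against 265, 392 and 258 in KO 1 to 3. The libraries labelled KO were all above WT, with KO 2 far above the rest (difference 0.33, SE 0.141, adjusted p = 0.236). Its second brightest probe set also kept the groups apart, at 0.30 (SE 0.116), with KO 1 to 3 close together (88.9, 97.7 and 91, against 66.6 to 78 in WT). Adipocytes also express Acly and Me1 strongly. Of 8 adipocyte markers 5 were read, all above 0; the defining marker Adipoq, the gene of adiponectin, gave 16.3 to 19.3 in the WT hearts against 54, 414 and 313 in KO 1 to 3. Adipoq (2.655, adjusted p = 0.0213) and Car3 (3.589, adjusted p = 0.00828) rose, against 2.01% of all genes. Fabp4 barely differed (0.01, adjusted p = 0.96) and was at -0.06 on the deposited scale. The summed signal of the 5 markers, most of it Fabp4, ran from 3530 to 4030 in WT and from 3750 to 5590 in the libraries labelled KO. This sum therefore says little of the markers that rose. The part of fat in the Acly and Me1 values was not tested.

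The NADPH and cytosolic isoenzyme group held 6 genes with a median of -0.04, 4 negative, and 0 passed. Idh1, the cytosolic NADP-dependent isocitrate dehydrogenase, had the lowest difference of the 30, at -0.54 (SE 0.184, adjusted p = 0.14). It gave 364, 437 and 319 in the WT hearts against 210, 354 and 206 in KO 1 to 3. KO 1 and KO 3 were well below WT, while KO 2 lay among the WT hearts. The less bright Idh1 probe set differed in that library. It read 174, 177 and 193 in the WT hearts against 130, 110 and 117 in KO 1 to 3, with all libraries labelled KO below WT at -0.55 (SE 0.106). In the fit over probe sets its adjusted p was 0.0193, and without KO 1 it was 0.00674 (-0.61). On the deposited scale it was 0.0877, with no intensity trend it was 0.114, and without any 1 of the other hearts it ran from 0.0534 to 0.098, so the call did not hold there. Both probe sets carry the suffix for probes shared between transcripts. As the mean of both probe sets Idh1 passed in the gene comparison (-0.55, adjusted p = 0.0257), and this reading was singled out after its values were seen. The main reading of Idh1 passed without KO 2 (-0.79, adjusted p = 0.0361) and with the mouse number as a replicate block (-0.54, adjusted p = 0.0434). It did not pass without KO 1 (-0.43, adjusted p = 0.216) or without KO 3 (-0.42, adjusted p = 0.357). Nor did it pass without any 1 of the WT hearts (adjusted p from 0.169 to 0.373).

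Idh2, the mitochondrial NADP-dependent form and the main one in heart, stayed close to WT, at -0.01 with an interval from -0.18 to 0.16 (3640 ± 375 in WT, 3610 ± 265 in the libraries labelled KO). Aco1, cytosolic aconitase and iron regulatory protein, was at 0.04 (SE 0.086). The malic enzymes differed in sign but did not pass. Me1, the cytosolic lipogenic form, read 581, 561 and 530 in the WT hearts against 543, 675 and 659 in KO 1 to 3, with KO 1 among the WT hearts (difference 0.16, SE 0.0934). Me3, a mitochondrial form, was at -0.07 (SE 0.0952).

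Nnt encodes the transhydrogenase of the inner membrane, which makes mitochondrial NADPH from NADH with the proton gradient. It gave 4090, 4820 and 3590 in the WT hearts against 4400, 3070 and 3040 in KO 1 to 3. KO 1 lay within the WT range and KO 2 and KO 3 below it. With all 6 hearts the difference was -0.26 (SE 0.138, adjusted p = 0.35), and without KO 1 it was -0.44 (SE 0.0967, adjusted p = 0.0188). A separate bright Nnt probe set was also low in KO 2 and KO 3, but there KO 1 lay above every WT heart, with 1540, 1520 and 1520 in the WT hearts against 1610, 1050 and 1260 in KO 1 to 3, at -0.24, and at -0.40 without KO 1 (adjusted p = 0.0107). Part of Nnt is deleted in C57BL/6J. The tables used here do not place the probe sets relative to that deletion, and WT 1 has no strain label.

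**Figure D2:**
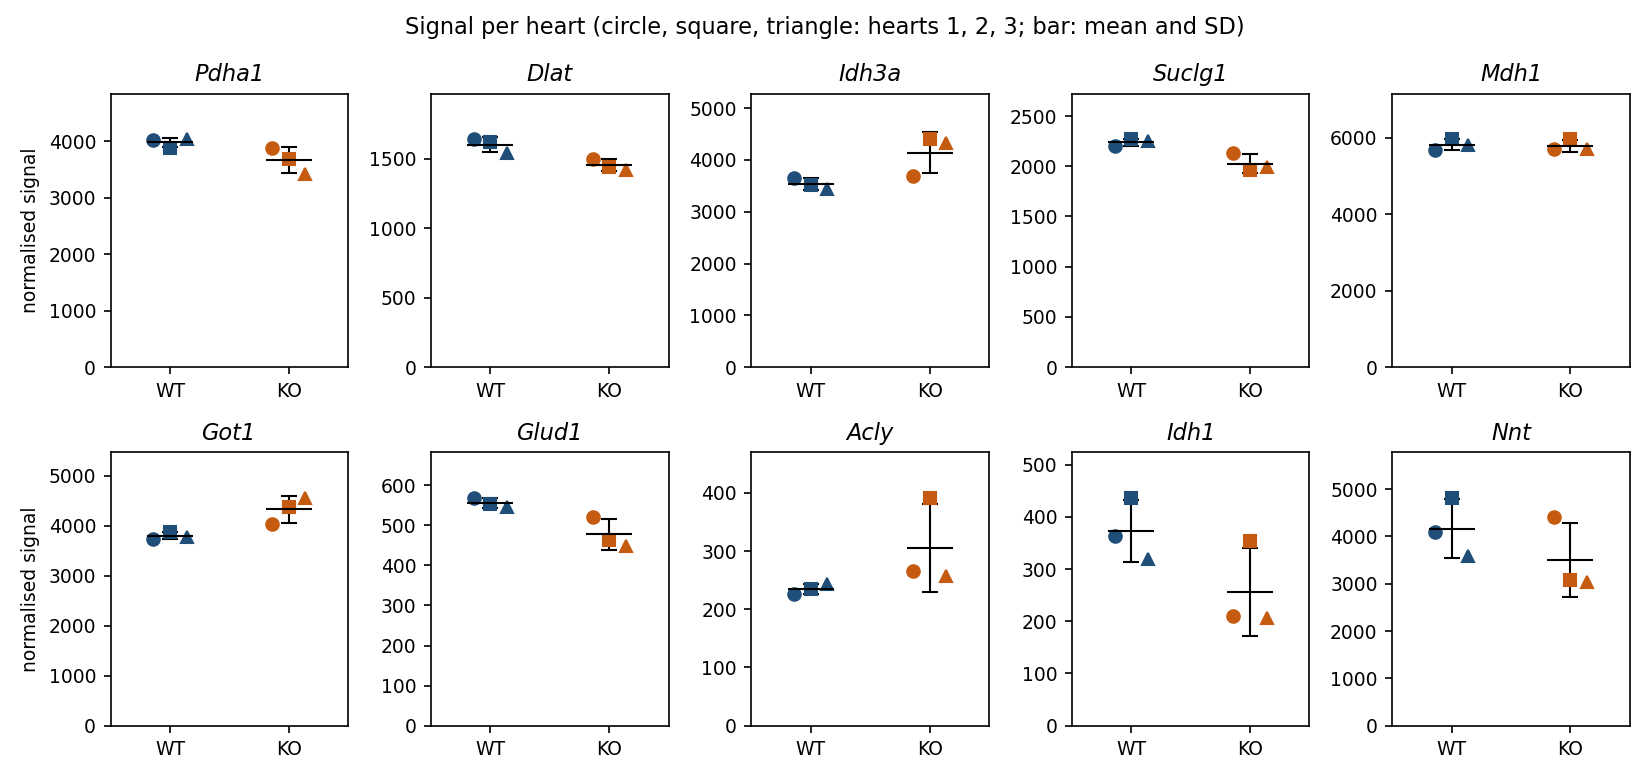
Normalised signal in each heart for the genes of smallest p in each role (linear axis from 0; circle, square and triangle are hearts 1, 2 and 3 of a group, blue for WT and orange for the libraries labelled KO; bars are the mean and SD, n = 3). The groups are apart for Dlat, Idh3a, Suclg1, Got1, Glud1 and Acly and overlap for Pdha1, Mdh1, Idh1 and Nnt, where KO 1 at 4400 sits with WT.

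The hearts were set against the WT mean one at a time. Medians over the 30 genes were 0.01, 0.02 and -0.02 for the WT hearts, against -0.03, -0.04 and -0.05 for KO 1, KO 2 and KO 3. Pyruvate entry was lowest in KO 2, at -0.12, and at -0.08 in KO 3 and -0.04 in KO 1. On the deposited scale the median in WT 1 was 0.18 over the 30 genes and 0.18 over all genes. KO 2 and KO 3 were both below the WT mean for 16 of the 30 genes, and in 12 of these KO 1 was higher than both. Both were above the WT mean for 9 genes, and in 8 of these KO 1 was lower than both. The genes counted were picked by KO 2 and KO 3 lying on the same side of the WT mean. That choice by itself favours a KO 1 nearer to WT. The same counts were not made over all genes and were not tested, so no position of KO 1 is read from them.

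**Figure D3:**
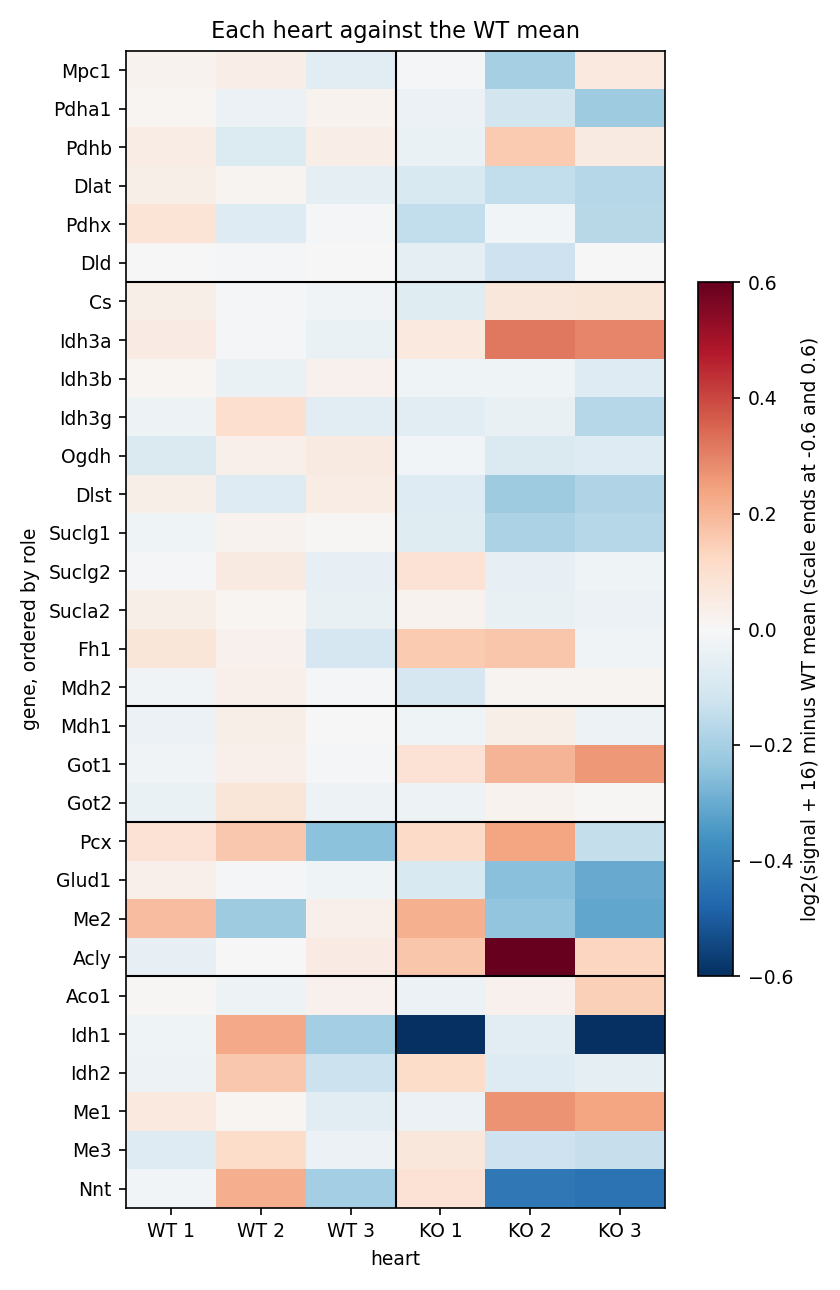
Log2(signal + 16) of each heart minus the WT mean (colour, from -0.6 in blue to 0.6 in red; stronger values take the end colour) for the 30 genes in order of role, with lines between roles and between groups. Idh1 is darkest in KO 1 and KO 3, Acly is darkest in KO 2, and Nnt is lowest in KO 2 and KO 3, while rows such as Cs, Mdh1, Mdh2 and Got2 stay pale in every heart.

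Agreement between probe sets was then examined over the list. Of the 30 genes 21 had several probe sets past the filter, 66 probe sets in all. The sign of the difference varied between probe sets in 6 genes, Aco1, Idh2, Mdh1, Mdh2, Me2 and Suclg2, and the brightest probe set of each of them lay between -0.11 and 0.04. In the fit over probe sets 2 of the 66 passed, against 2.49% of all 27022 probe sets. They were the Dlat and Idh1 probe sets described above, both lower in the libraries labelled KO, against 1.03% of all probe sets. The chosen probe set of 14 genes carries a suffix for probes that match several transcripts.

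**Figure D4:**
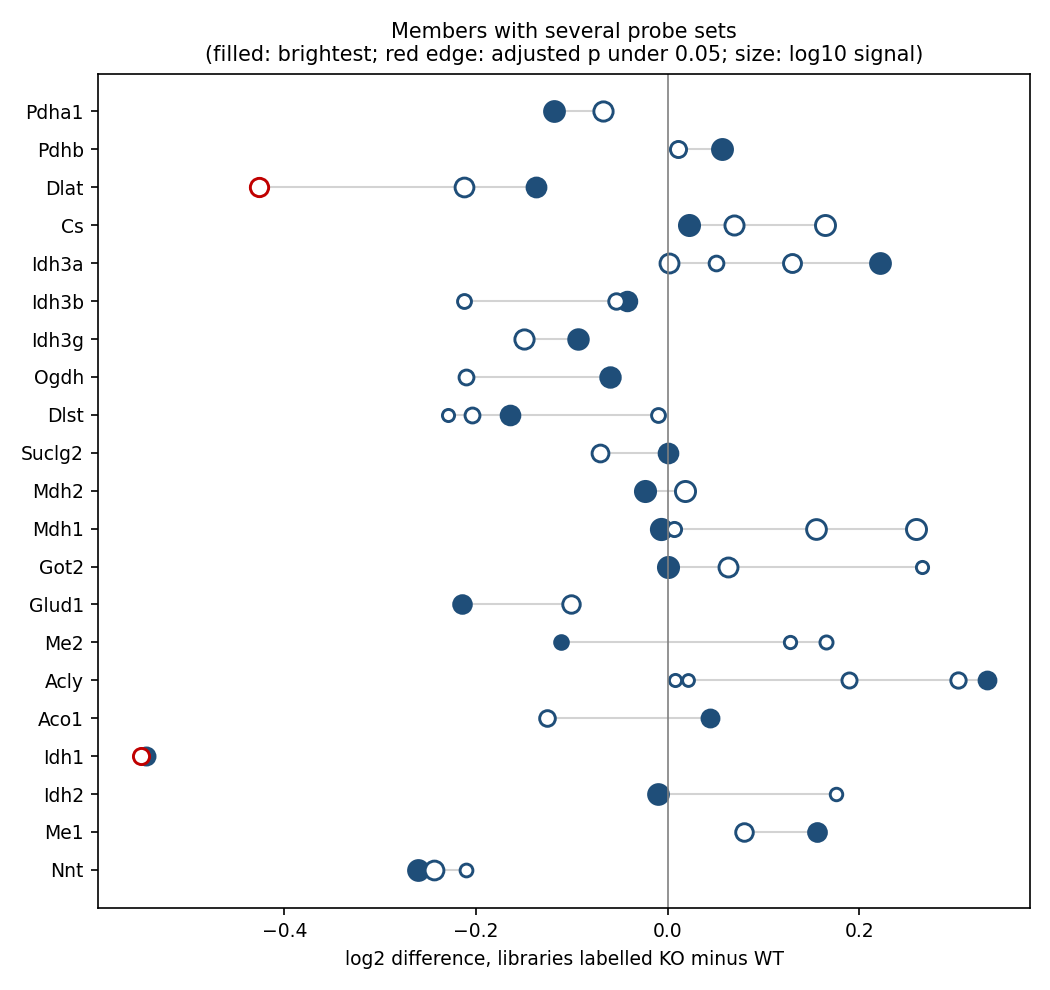
Log2 difference, KO minus WT, of every probe set past the filter for the 21 genes with several (filled for the brightest probe set, larger for brighter signal, red edge where the adjusted p was under 0.05). The red-edged points are Dlat at -0.43 and Idh1 at -0.55; for Idh3a the brightest probe set lies furthest right at 0.22 and the others lie between 0.00 and 0.13.

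Other genes of the same pathways were listed by function, 39 in all, of which 36 were tested. They are the succinate dehydrogenase subunits, pyruvate dehydrogenase kinases and phosphatases, carriers, and enzymes of glutamate, lactate, ketone, acetate and propionate entry. Of these 1 fell, against 1.42% of all genes, and 0 rose, against 2.01%. Slc25a22, a mitochondrial glutamate carrier, gave 106, 122 and 147 in the WT hearts against 70.3, 82.4 and 68.8 in KO 1 to 3 (difference -0.64, SE 0.13, adjusted p = 0.0263). The groups were apart, and it also passed on the deposited scale (adjusted p = 0.0197) and without KO 1 (-0.62, adjusted p = 0.0271). Without any 1 of the other hearts it did not pass. Without KO 1, 4 of the 36 fell, against 3.72% of all genes, and 0 rose, against 3.98%. These were Slc25a22, Pdpr, Gpt and Acss2. Pdpr, a regulatory subunit of the phosphatase that reactivates pyruvate dehydrogenase, gave 434 ± 12.3 in WT against 343 ± 34.1 in the libraries labelled KO, and was at -0.41 without KO 1 (adjusted p = 0.0131). Gpt, alanine aminotransferase, which links alanine to pyruvate, was at -0.78 without KO 1 (adjusted p = 0.00458), and Acss2, the cytosolic acetyl-CoA synthetase, at -0.58 (adjusted p = 0.0153).

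Succinate dehydrogenase, the cycle enzyme that is also respiratory complex II, showed differences of 0.01 for Sdha, 0.05 for Sdhb, 0.04 for Sdhc and -0.04 for Sdhd. Their adjusted p ran from 0.669 to 0.935. Every library labelled KO lay below every WT heart in 7 of the 36 neighbours, against 12.5% of all genes. These were the pyruvate dehydrogenase phosphatase genes Pdp1, Pdp2 and Pdpr, and Slc25a22, Gpt, Acss2 and Lipt1, a lipoyltransferase. The KO hearts lay wholly above WT in 1 neighbour, against 11.2% of all genes. This was Pdk2, a kinase that switches pyruvate dehydrogenase off (0.12, SE 0.0634, adjusted p = 0.341). By deposited signals the Pdk2 groups overlapped, with 1326, 1059.3 and 1014.5 in WT against 1178.3, 1167.7 and 1317.7 in KO 1 to 3. The other kinases Pdk1, Pdk3 and Pdk4 had the opposite sign, at -0.03, -0.10 and -0.29. Their groups overlapped and none passed.

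Markers of the tissue were read in the same fit. The 8 cardiomyocyte markers had a summed signal of 57000 to 57600 in WT and 57100 to 58400 in the libraries labelled KO, and none passed. On the deposited scale all 8 were negative, with a median of -0.05, against -0.03 over all genes. By normalised signals the libraries labelled KO lay wholly below WT for 1 of the 8, against 12.5% of all genes. This was Ryr2 (-0.15, adjusted p = 0.178). All 5 atrial markers (Sln, Myl4, Myl7, Mybphl and Bmp10) rose, against 2.01% of all genes. Their sums were 1320, 1390 and 4710 in WT 1 to 3 against 9020, 8520 and 6050 in KO 1 to 3. WT 3 thus stood far above the other WT hearts. Of the 6 fibroblast markers 4 rose (Col1a2, Col3a1, Dcn and Lum), with sums of 5750 to 6110 against 7320 to 8760. On the deposited scale 1 fibroblast marker passed. Without KO 1, all 5 atrial, 5 fibroblast and 4 of 5 adipocyte markers rose, against 3.98% of all genes. None of the 4 endothelial, 3 leukocyte and 1 erythroid markers read passed, and without KO 1 the leukocyte marker Ptprc rose (0.74, adjusted p = 0.0167). Of 2 skeletal muscle markers read, Acta1, an actin that the heart also expresses, fell (-0.69, adjusted p = 0.0315; -0.49 and 0.0111 without KO 1). No marker that was read was at 0 in every heart. The part of these tissue differences in the values of the 30 genes was not tested.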

How the data were processed

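Per the submitters' processing notes the authors summarised each array with MAS5. They deposited 1 linear signal intensity for each probe set, with scaling target and detection calls not given in the sources used here. Of 45099 probe sets 62 are controls, 34945 have 1 gene symbol, 932 several and 9160 none. Log2(signal + 16) was quantile normalised over the other probe sets, because the deposited arrays differed in brightness (means trimmed by 2% at each end). Probe sets at or above the 40th percentile of the mean (signal 8.16) were kept, and the brightest stood for each gene. Fold changes on this scale understate those of dim genes. The 3 KO and 3 WT hearts were compared by limma 3.58.1 in R 4.3.3 (lmFit, then eBayes allowing for an intensity trend). Tests were two-sided, and p-values were adjusted by Benjamini-Hochberg over 12944 genes, with a threshold of 0.05. The variance shared between genes carried 6.8 prior degrees of freedom. P-values measure the spread between these hearts, and 3 arrays a group limit the precision. On simulated data of 12944 genes with the spread of these hearts, the fit recovered 31% of 100 genes changed 1.5-fold and 73% of 100 changed 2-fold, with 4 false calls. The changed genes were drawn from all genes, whose median SE was 0.143, against 0.0668 for the 30. These rates therefore do not describe the list. No pair of arrays held identical values. All 74 probe sets of the listed genes matched the RefSeq table by gene identifier.

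Genes are given by a rule: every listed gene with its difference, the signal of each heart for the 2 of smallest p in each role and for Nnt, and pathway or marker genes past the threshold. The plan also held the 2 markers of smallest p in each list where none passed, and these are not all given. Outside the rule, and chosen after their values were seen, are the signals of Me1, the succinate dehydrogenase subunits, the further probe sets, and the neighbours and markers given for their order between groups or without KO 1. Also outside it are the mean signals of Pdhb, Cs, Dlst, Got2, Idh2, Pcx and Me2, and the differences of Pdk1, Pdk3, Pdk4 and Fabp4. The members and lists were chosen with earlier results of these data known. Alternatives were other scalings, pseudocounts, filters, probe set rules and variance models, a replicate block and leaving out each heart. Protein sequences were not used here, so a planned comparison of isoenzyme sequences was not made.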

Additional observations from a re-analysis of the deposited data

How the results depend on the processing

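The arrays carry 3 hearts a group, WT 1 has no strain or age label and KO 1 keeps Esrra signal, so small differences rest on few hearts. Pcx and Me2 were dim, with wide intervals. Over 18 alternatives and the 30 genes, 18 of 534 differences turned sign at 2 decimals and 6 newly passed the threshold. Suclg2 and Got2, at 0.00, had no direction at that precision, and Got2 was -0.06 as deposited and Suclg2 -0.04 without KO 1. Pdhb was -0.002 as deposited. Idh1 passed when its probe sets were averaged (-0.55) and with the replicate block (-0.54), each time as the 1 lower gene of the list, and without KO 2 (-0.79); Idh3a (0.30), Got1 (0.23) and Nnt (-0.44) passed without KO 1. Leaving out each heart gave 0 to 2 higher and 0 to 1 lower genes of the list. The sign turned for Cs (-0.03 as deposited, -0.02 with median centring), Mdh1 (0.10 as the mean of probe sets, 0.01 without WT 2, 0.01 without KO 3), Me2 (0.06 as the mean of probe sets), Aco1 (-0.04 as that mean, -0.13 without shared-probe suffixes, -0.01 without KO 3), Idh2 (0.08 and 0.18 under the same probe set rules, 0.02 without KO 2 and without KO 3, and -0.07 to 0.07 over all hearts left out), Pcx (-0.05 without WT 3, -0.01 without KO 2), Mdh2 (0.02 without KO 1) and Mpc1 (0.03 without KO 2, the highest of -0.11 to 0.03). The cause was not tested.

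The median of the list was -0.085 as deposited, -0.071 with median centring and -0.064 over the 24 genes with a probe set free of shared-probe suffixes, and ran from -0.056 to -0.014 when each heart was left out. The median over all genes was -0.028 as deposited, -0.013 with median centring and -0.015 without shared-probe suffixes. It ran from -0.017 to -0.009 when each heart was left out. Over all genes 260 were higher and 184 lower. These counts were 126 and 66 with no filter, 20 and 6 with no intensity trend, 303 lower with array weights, and 37 to 515 higher and 17 to 481 lower when each heart was left out. Of the pathway neighbours 0 were lower with no filter and with no intensity trend, 2 as the mean of probe sets, 4 with array weights and 0 to 4 when each heart was left out, and 1 was higher (Pck1) without shared-probe suffixes. Esrra stayed at -2.56 but did not pass with no filter (adjusted p = 0.0655) or with no intensity trend (0.116), and ran from -3.37 to -2.09 when each heart was left out, passing only without KO 1 among these.

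With the mouse number as a replicate block 196 genes were higher and 121 lower. Nothing in the labels ties a WT mouse to the KO mouse of its number. Deviations from the group means of same-numbered hearts correlated across genes at 0.027, -0.034 and 0.037, so the numbers were not taken to pair the samples.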
